A study of Mus musculus with 11 samples.

Results

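The cells described here are Lef1/Tcf7-positive CD4 T cells of mouse lung, chosen from single-cell counts by a fixed set of unique molecular identifier (UMI) thresholds, where 1 UMI is 1 captured transcript molecule. Barcodes had to hold between 1000 and 30000 UMIs, of which mitochondrial genes made up 14% or less. Among these a barcode was taken when it held 2 or more UMIs of Cd3d, Cd3e and Cd3g together, 1 or more of Cd4, and 1 or more of Lef1 and Tcf7 together. It also had to hold 0 UMIs of Cd8a, Cd8b1, Foxp3, Pdcd1, Tnfrsf4 and Cd79a. These thresholds kept 933 of the 69267 barcodes that passed the depth and mitochondrial limits, or 1.35%, of 81983 deposited barcodes. Of all 3432 barcodes with Cd3 and Cd4 and without Cd8 and Cd79a (CD4 T cells below), the rest were Foxp3-positive, carried Pdcd1 or Tnfrsf4, or lacked Lef1 and Tcf7. The working name of the population is naive-like CD4 T cells. Recirculation genes of naive cells were found in only a share of them, and the cells are therefore called by the thresholds that chose them, or the gated cells.

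Whole lungs were dissociated and sequenced by droplet-based 3′ single-cell RNA sequencing in 11 libraries. The groups were WT (+/+, 1 library), p21Het (p21 +/-, 3 libraries), p21mTert (+/mTert, 5 libraries) and p21mTertCD (+/mTertCD, 2 libraries). Every mutant group therefore kept 1 normal allele of p21, the gene Cdkn1a, which encodes a cyclin-dependent kinase inhibitor. In p21mTert mice the other allele carries mTert, the mouse telomerase reverse transcriptase, and what mTertCD stands for is not spelled out in the labels. The age label was 18 months for 9 libraries, 19 months for p21Het_1 and 20 months for p21mTert_1, while the title of each library says 18. WT_1, p21Het_1 and p21mTert_1 have titles without a replicate number, and are called the first deposit against 8 libraries of the later deposit. Age and deposit cannot be told apart for p21Het_1 and p21mTert_1. The labels do not name a sex, a strain or whether animals were pooled, so p-values measure the spread between these libraries. Libraries are named by group and number.

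Naive CD4 T cells have left the thymus but not yet met their antigen. They circulate between blood and lymphoid organs, which they enter with the help of the chemokine receptor Ccr7 and leave through the sphingosine phosphate receptor S1pr1. The transcription factors Lef1 and Tcf7 (TCF1) keep T cells in a naive or memory state with the capacity to renew, so neither gene alone marks naive cells: memory T cells, including those resident in lung, can express Tcf7 and tend to carry S100a4, Cd44 and Cxcr6.

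The 933 gated cells held 5755027 UMIs, 276690 to 778086 per library, with a median of 5655 UMIs and 1797 genes per cell. Libraries contributed 52 cells (WT_1), 90, 115 and 108 (p21Het), 142, 47, 80, 102 and 48 (p21mTert), and 77 and 72 (p21mTertCD). The gated cells of the first deposit had a higher median mitochondrial share (5.86% to 6.51%) than those of the later deposit (3.20% to 4.43%). Between any 2 libraries 9 to 83 deposited barcodes were shared, but no gated barcode was. UMIs of genes of other cell types were present: 98.5% of gated cells held a UMI of the club cell gene Scgb1a1, 90.5% of the alveolar type 2 gene Sftpc, 62.0% of the haemoglobin gene Hbb-bs and 57.4% of the myeloid gene Lyz2. In CPM (a gene's UMIs as a share of all UMIs of the gated cells in a library, times 1000000), Sftpc was highest in p21Het_1 at 4516, and Hbb-bs in p21mTertCD_1 at 7691. At least 2 UMIs of the myeloid genes Fcer1g, Tyrobp, Csf1r, S100a8 and S100a9 together were found in 194 gated cells, 58 of them in p21Het_3. The defining B cell gene Ms4a1 had 5 UMIs over all gated cells, and the gamma delta T cell gene Trdv4 had 0. Other genes of these cell types were present: Ighm of B cells in 39.4% of gated cells (720 UMIs) and Trdc of gamma delta T cells in 2.36% (51 UMIs).

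One library stood apart before any comparison. In p21mTertCD_1, 672 of 830 CD4 T cells were without Foxp3 and carried Pdcd1 or Tnfrsf4 (81.0%, against 26.1% to 62.6% elsewhere), and 77 were gated. There the 22 genes of a naive and recirculation list summed to 3523 CPM. The sum was also low in p21Het_2, at 4584 CPM, against 5920 to 8548 CPM in the other 9 libraries. For contrasts that include p21mTertCD_1, values without it are given where they moved by more than 1.5 times or turned.

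Cdkn1a and Tert, the genes engineered in these mice, were sparse in the gated cells. Cdkn1a was at 3.61 CPM in WT, at 55.0, 58.2 and 47.6 CPM in p21Het, at 24.6, 6.99, 28.8, 21.7 and 52.3 CPM in p21mTert, and at 37.8 and 38.3 CPM in p21mTertCD. The p21mTert and p21Het ranges overlapped through p21mTert_5, and the log2 difference of -1.01 (SE 0.32) did not pass edgeR's quasi-likelihood test (adjusted p = 0.958). Tert had 7 UMIs in all 933 cells, so its level cannot check the labels here.

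The identity of the cells as T cells was also read from genes outside the thresholds. T cell receptor constant genes, which no threshold used, were found in most gated cells: Trac in 89.1% and Trbc2 in 95.5%. At 1000 UMIs per cell they were found in 41.2% and 62.3% of gated cells, against 0.0251% and 0.1505% of Epcam-positive epithelial cells and 0.190% and 0.265% of B cells, whereas Scgb1a1 was found in 67.7%, 66.0% and 76.2% of the 3 populations. The gate gene Cd3e was found in 36.2% of gated cells at this depth, and in 0% of epithelial cells and of B cells. The populations thus also differed in a gene of the thresholds, which bears on this contrast. Trac ranged from 419 CPM in p21mTert_2 to 713 CPM in p21mTert_5, and Trbc2 from 774 CPM in p21Het_2 to 1497 CPM in p21mTert_5. The receptor chain Cd247 was found in 63.8%. The Cd4 threshold was met with the least possible evidence in 505 cells, which held exactly 1 Cd4 UMI. The Cd3 threshold was met with exactly 2 UMIs in 22 cells, and 8 cells of the same kind with 1 Cd3 UMI lay just outside.

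The Lef1/Tcf7 threshold drew its cells mainly through Tcf7. Tcf7 was found in 836 cells and Lef1 in 547, with 450 holding both. At this edge, 227 gated cells held exactly 1 UMI of Lef1 and Tcf7 together, and 279 cells that met every other threshold held 0. For Ccr7, S100a4 and Igfbp4, the share among the cells just inside was nearer to that just outside than to that among the 706 cells with 2 or more. A UMI of Ccr7 was found in 16.3% of cells with exactly 1, in 7.53% of the excluded cells, and in 57.5% of cells with 2 or more. S100a4, a calcium-binding protein of memory T cells, was found in 71.4%, 77.1% and 37.0% in the same order. Igfbp4, a binding protein of insulin-like growth factors expressed by naive T cells, was found in 0.881%, 2.15% and 31.3%. Il7r, found in 80.2%, 72.04% and 86.4%, was nearer to the cells with 2 or more. Median depth was 5172, 4842 and 5799 UMIs, and these values describe the threshold without a test.

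Recirculation genes varied widely between libraries, within groups as well as between them. Ccr7 (ENSMUSG00000037944, chromosome 11, 99144196 to 99155077 on GRCm38) was at 716 CPM in WT, at 455, 189 and 460.1 CPM in p21Het, at 440.2, 454, 272, 425 and 326 CPM in p21mTert, and at 9.44 and 559.8 CPM in p21mTertCD. Ccr7 was lowest in p21mTertCD_1 and next lowest in p21Het_2, and the range of each mutant group overlapped that of the others.

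The same order held for S1pr1, Klf2, Satb1, Igfbp4 and Dapl1, but not for every gene of the naive and recirculation list. The kinase gene Txk was lowest in p21Het_2 at 107 CPM, with p21mTertCD_1 at 123 CPM. S1pr1 ranged from 134 CPM in p21mTertCD_1 and 248.5 CPM in p21Het_2 to 483 CPM in p21mTertCD_2. Klf2, the factor that drives transcription of S1pr1, ranged from 404 CPM in p21mTertCD_1 and 495.5 CPM in p21Het_2 to 1384 CPM in WT. Satb1, a chromatin organiser of T cells, was at 100.1 CPM in p21mTertCD_1 and 291 CPM in p21Het_2, and at 360.3 to 839 CPM in the other 9. Igfbp4 was at 0 UMIs in p21mTertCD_1, at 58.2 CPM in p21Het_2 and at 101 to 379 CPM elsewhere. Dapl1, a gene of unsettled function that marks naive and central memory T cells, was also at 0 UMIs in p21mTertCD_1, at 47.2 CPM in p21Het_2 and at 50.6 to 169.9 CPM elsewhere. Il7r, the receptor for the survival cytokine interleukin 7, varied less, from 593 CPM in p21mTertCD_1 to 999 CPM in p21mTert_1, and was found in 84.9% of all gated cells.

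**Figure D1:**
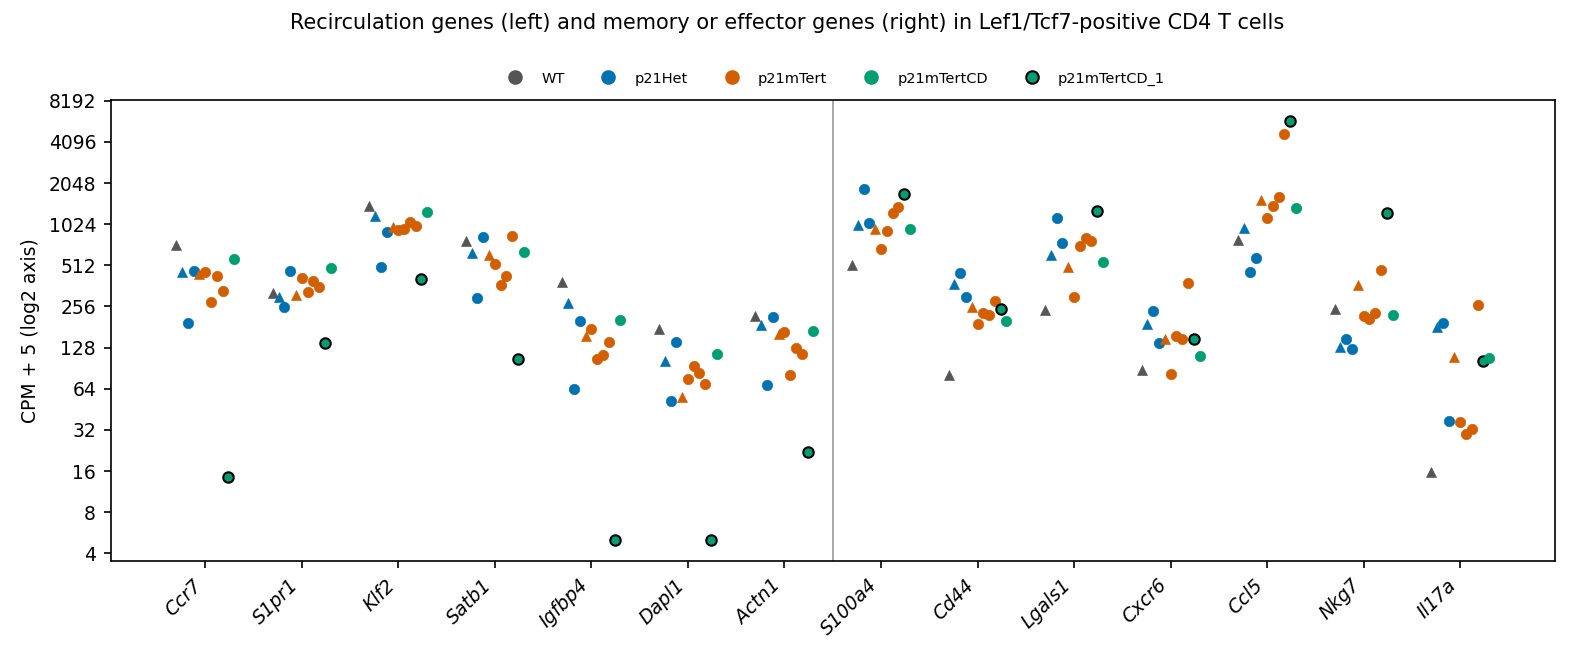
Levels of 7 recirculation genes and 7 memory or effector genes in the Lef1/Tcf7-positive CD4 T cells of each library, as CPM + 5 on a log2 axis; points are libraries coloured by group, triangles the first deposit, and black rims p21mTertCD_1. Igfbp4 and Dapl1 sit at 0 CPM in p21mTertCD_1, which is highest for Ccl5 and Nkg7.

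The stretches before the start sites of Igfbp4, Dapl1 and Satb1, each lowest in p21mTertCD_1 and next lowest in p21Het_2, and of the gate gene Lef1 are shown to let the sequence be read beside the levels. They are the 250 bases before the first RefSeq start listed for each gene (GRCm38.p6), 5′ to 3′ on the gene's strand: chr11:99040994-99041243 (+) for Igfbp4, chr2:59484403-59484652 (+) for Dapl1, chr17:51833291-51833540 (-) for Satb1 and chr3:131110047-131110296 (+) for Lef1. Capitals mark matches to 3 motifs searched on both strands: CACACCC, a form bound by Krüppel-like factors such as Klf2, CTTTGAT for the TCF/LEF family, and GTAAACA for FOXO factors.
Igfbp4: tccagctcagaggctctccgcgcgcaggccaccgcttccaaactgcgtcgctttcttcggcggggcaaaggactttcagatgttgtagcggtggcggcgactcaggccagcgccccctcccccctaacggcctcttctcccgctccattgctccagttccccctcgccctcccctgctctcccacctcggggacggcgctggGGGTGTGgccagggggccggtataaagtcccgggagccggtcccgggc
Dapl1: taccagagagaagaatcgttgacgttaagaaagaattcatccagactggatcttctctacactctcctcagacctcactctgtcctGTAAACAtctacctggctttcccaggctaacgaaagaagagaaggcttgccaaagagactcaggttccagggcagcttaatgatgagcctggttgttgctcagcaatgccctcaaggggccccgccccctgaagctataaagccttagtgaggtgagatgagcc
Satb1: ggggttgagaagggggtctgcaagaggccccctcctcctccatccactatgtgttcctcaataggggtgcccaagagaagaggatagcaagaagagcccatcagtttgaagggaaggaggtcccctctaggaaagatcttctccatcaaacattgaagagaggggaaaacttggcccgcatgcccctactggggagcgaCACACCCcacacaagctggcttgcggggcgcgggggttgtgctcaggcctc
Lef1: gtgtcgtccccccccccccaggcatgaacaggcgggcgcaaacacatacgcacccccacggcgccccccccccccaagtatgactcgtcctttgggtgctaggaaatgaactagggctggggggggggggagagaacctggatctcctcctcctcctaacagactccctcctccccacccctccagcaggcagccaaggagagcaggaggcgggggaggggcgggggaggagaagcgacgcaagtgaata
CACACCC was found in Igfbp4, as its complement GGGTGTG, 48 bases before the start, and in Satb1 at 51 bases. GTAAACA was found in Dapl1 at 164 bases, and Lef1 held none of the 3 in this window. Nor did the first windows of Klf2, Tcf7 and Il7r, which are not printed, while the second window listed for Tcf7 held CACACCC, as its complement, at 69 bases. The further windows listed for Satb1 and Lef1 held none of the 3 motifs. The motifs occur in 6.93%, 3.21% and 3.17% of 32851 RefSeq windows of the same length, in the order given above. These matches describe the letters and not binding.

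Memory and effector genes were also abundant in the gated cells. The 27 genes of that list summed to 6885 CPM in WT and to 22315 CPM in p21mTertCD_1, with 9612 to 18066 CPM in the other 9 libraries. S100a4 (ENSMUSG00000001020, chromosome 3, 90603771 to 90606045) was at 513 CPM in WT, at 998, 1839 and 1038 CPM in p21Het, at 940.4, 671, 904, 1240 and 1374 CPM in p21mTert, and at 1690.5 and 943 CPM in p21mTertCD. WT was lowest, and p21Het_2 and p21mTertCD_1, the libraries with the least Ccr7, were highest. Lgals1, a galectin of activated T cells, ranged from 235 CPM in WT to 1267 CPM in p21mTertCD_1. Cxcr6, a chemokine receptor of lung-resident T cells, ranged from 76.9 CPM in p21mTert_2 to 375 CPM in p21mTert_5. Ccl5, a chemokine of effector T cells, was at 456 to 1614 CPM in 9 libraries, at 4667 CPM in p21mTert_5 and at 5831 CPM in p21mTertCD_1. It was found in 26.9% of gated cells, and in 70.1% of those of p21mTertCD_1.

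At equal depth, Ccr7 and S100a4 were seldom found in the same gated cell. To hold depth equal, each gated cell was thinned at random to 1000 UMIs. Then 23.4% of cells (218) held Ccr7 without S100a4, 32.4% (302) held S100a4 without Ccr7, 1.82% (17) held both and 42.4% (396) held neither. S100a4 was found in 7.23% of the 235 cells with Ccr7 and in 43.3% of the 698 cells without. The split ran the same way in each of the 10 libraries with a cell on both sides: the share with S100a4 was 0 to 15.4% among cells with Ccr7 and 26.7% to 61.0% among those without. These shares rest on 12 to 38 cells with Ccr7 per library, and p21mTertCD_1 held none at this depth, with S100a4 in 49.4% of its 77 cells. A gene without a UMI at this depth can still be expressed, so cells with both genes are undercounted.

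**Figure D2:**
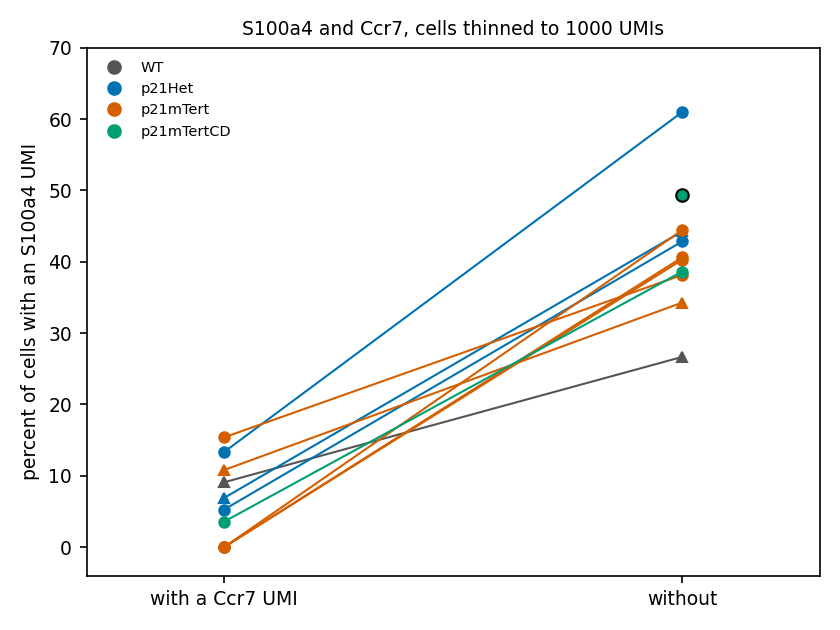
Share of Lef1/Tcf7-positive CD4 T cells with an S100a4 UMI, in percent, among cells with and without a Ccr7 UMI, all thinned to 1000 UMIs; each line is a library coloured by group, triangles are the first deposit, and the point with a black rim is p21mTertCD_1, which had no cell with Ccr7. Every line rises from left (0 to 15.4%) to right (26.7% to 61.0%).

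The S100a4 share lay above those in B cells and epithelial cells, and the Ccr7 share above that in epithelial cells but not that in B cells. At 1000 UMIs, S100a4 was found in 34.2% of gated cells, against 1.96% of 14721 B cells and 0.451% of 3987 Epcam-positive epithelial cells. Ccr7 was found in 25.2% of gated cells and 0.251% of epithelial cells, but in 42.9% of B cells. Ccr7 was also more frequent than in gated cells in Lef1/Tcf7-positive CD8 T cells without Gzmk and Gzmb (38.1% of 2835 cells), where S100a4 was found in 6.35%. Before thinning the median cell had 5655 UMIs among gated cells, 8792 among these CD8 T cells, 4164 among B cells and 18203 among epithelial cells.

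Dividing the gated cells by a Ccr7 UMI at full depth showed which genes went with each side. In 8 libraries with at least 20 cells on both sides, 67 genes were higher with Ccr7 in each library and at least 2-fold so on average, and 199 were lower by the same rule, of 5737 genes at 20 CPM or more on a side. This describes cells divided by their own counts, without a test, and WT_1, p21mTert_5 and p21mTertCD_1 had too few cells. Igfbp4 was at 265 CPM with and 15.9 CPM without Ccr7 (log2 difference 3.92, SD 1.20 over libraries), and Dapl1 at 144 and 9.34 CPM (3.66, SD 1.21). Actn1, which encodes a cytoskeletal actinin, differed by 3.07, Lef1 by 2.29, the repressor Bach2 by 1.95, Satb1 by 1.80 and S1pr1 by 1.33. Tcf7, the other gate gene, differed by 0.55. Every gated cell had to hold a UMI of Lef1 or Tcf7, so the gate bears on the differences of both genes. On the other side, Il17a was at 15.5 CPM with and 180.4 CPM without (-3.70, SD 1.89), Cxcr6 at 46.7 and 272 CPM (-2.76) and S100a4 at 470.4 and 1867 CPM (-2.28). Nkg7, a gene of cytotoxic granules (-2.75), the natural killer receptor gene Klrc1 (-2.66), the transcription factor Eomes (-2.49) and the chemokine receptor Ccr2 (-1.89) also sat with the cells lacking Ccr7.

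Lists were counted by direction in every library alone, without the 2-fold limit. The share of all genes under this looser rule is not given, so the counts over all genes above are no background for these. By list, 16 of 21 measured naive and recirculation genes were higher with Ccr7 in every library (median log2 difference 0.92), and 1 was lower, the survival receptor Il7r (-0.39). Of 27 memory and effector genes, 20 were lower in every library (median -1.71). So were 7 of 7 measured T helper 17 genes (-1.996) and 3 of 7 T helper 1 genes (-1.89). Genes of the interferon response (29 measured, median 0.08) and of the cell cycle (14, -0.20) did not divide in this way. Medians were 0.66 for B cell markers (6 measured), -0.52 for myeloid markers (8) and -1.48 for natural killer and innate T markers (5). Of each of these 3 lists, 0 genes ran the same way in every library, and their part was not tested. The 443 cells with Ccr7 had a median of 6089 UMIs and the 490 without 5262.

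UMIs of helper lineage genes were found in part of the gated cells. Il17a, the signature cytokine of T helper 17 cells, was found in 6.4% of gated cells and was at 10.8 CPM in WT, at 176, 187 and 32.1 CPM in p21Het, at 104, 31.4, 24.7, 27.5 and 258 CPM in p21mTert, and at 96.3 and 102 CPM in p21mTertCD. WT lay below every other library, and the ranges of the other 3 groups overlapped. The T helper 17 receptor Ccr6 was found in 13.1%. Tbx21, the T helper 1 factor, was found in 11.1% and Ifng in 7.8%. Gata3 was found in 40.3%. Of the T helper 2 cytokines, Il4 had 42 UMIs, 17 of them in p21mTert_5, in 19 cells (2.04%), while Il13 and Il5 had 2 and 0 UMIs. Cxcr5, the receptor of follicular helper cells, was found in 7.2%. Ikzf2, which regulatory T cells carry with Foxp3, was found in 9.8% although Foxp3 was at 0 by the gate. With each cell thinned to 1000 UMIs, Il17a was found in 3.97% of gated cells, Gata3 in 10.4%, Tbx21 in 2.25% and Ifng in 2.14%, against 0%, 0.0752%, 0.0251% and 0% of Epcam-positive epithelial cells, and 0.0340%, 0.0815%, 0.482% and 0.0679% of B cells. Ikzf2 was found in 3.43%, against 1.10% of epithelial cells and 0.0543% of B cells. B cells held more Ccr6 (7.92% against 3.54%) and Cxcr5 (17.1% against 1.501%) than the gated cells, and both genes are known from B cells, while epithelial cells held 0.201% and 0.0251%.

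Gated cells were set beside CD4 T cells of the same gate that carried Pdcd1 or Tnfrsf4, genes of activated T cells. These were 1865 cells with a median of 5886 UMIs, and no demand was made on Lef1 or Tcf7. The gate made the contrast, so differences are given as means over libraries of log2(CPM + 5) with no test. Of 5713 genes at 20 CPM or more on a side, 6 (0.105%) were higher in the gated cells in each library and at least 2-fold so on average, and 52 (0.91%) were lower by this rule. Among the 6 were the kinases Txk (1.10) and Pdk1 (1.06), the phosphodiesterase Pde3b (1.10), the motor protein Myo6 (1.03) and the receptor Gpr18 (1.01). Ccr7 was higher in 11 of 11 libraries by 0.87 (SD 0.52), at 391 ± 188 CPM against 210.4 ± 129 CPM (SD, n = 11).

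Among the 52 lower genes, regulatory T cell genes other than Foxp3 made up 7 (of 9 measured), and genes of follicular helper cells and checkpoints 4 (of 12). Ikzf2 was at 35.4 ± 19.1 CPM in the gated cells and 315 ± 122 CPM in the Pdcd1/Tnfrsf4 cells (log2 difference -3.01, SD 1.02). The inhibitory receptor Lag3 differed by -2.13, the costimulatory receptor Tnfrsf9 by -2.27 and the growth factor Areg by -2.16. Sostdc1, a secreted antagonist of Wnt and BMP signals, differed most (-3.17, SD 1.35), and was at 0 UMIs in the gated cells of 6 libraries. Of 20 naive and recirculation genes, 16 lay above 0, with a median of 0.29 against -0.15 over all genes, and 2 met the rule for higher genes. All 17 cell cycle genes lay below 0 (median -0.74). Myeloid markers lay higher in the gated cells in 7 of 8 (median 0.51) and markers of natural killer and innate T cells in 3 of 3 (median 0.55), and their part was not tested.

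Setting the gated cells beside the 279 excluded cells without Lef1 and Tcf7 was possible in 4 libraries with 20 cells or more (189 excluded cells). There 30 genes (0.519%) were higher and 34 (0.588%) lower by the same rule, of 5778. The cytokine gene Il22 differed most among the higher genes, by 2.33, at a mean of 34.7 CPM against 0 CPM in the excluded cells. Its level in the gated cells ran from 5.47 CPM in p21mTert_1 to 105 CPM in p21mTert_3. Actn1 was higher by 1.96 (SD 1.54), the phosphatase Dusp10 by 1.70 (SD 1.13) and the interleukin 6 receptor gene Il6ra by 1.35 (SD 0.18). All 20 measured naive and recirculation genes lay above 0 (median 0.81, against -0.03 over all genes). Among lower genes were the macrophage genes Mrc1 (-1.60), Retnla (-1.63) and Ccl3 (-2.26). All 9 measured myeloid markers were lower in the gated cells (median -0.49), as were 5 of 6 B cell markers (median -1.55), 4 of 5 structural cell markers (median -0.78) and 4 of 4 erythroid markers (median -0.37). The part of RNA of these cells in the contrast was not tested.

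Against the 2835 CD8 T cells of the like gate, which held Lef1 or Tcf7 and no Gzmk or Gzmb, 104 genes (1.92%) were higher in the gated cells and 51 (0.943%) lower by the same rule, of 5410. Cd40lg, the helper signal to B cells, was at 136 ± 44.2 CPM in the CD4 cells and 3.39 ± 2.85 CPM in the CD8 cells (log2 difference 4.07, SD 0.49, n = 11). The transcription factor Maf (4.03), Il17a (3.73), the receptor adaptor Trat1 (3.27), S100a4 (3.09), Ccr6 (2.68) and the inhibitory receptor Ctla4 (2.61) were also higher in 11 of 11 libraries. The surface protein gene Ly6c2 (-3.89), the granzyme Gzmm (-3.83), the Fc receptor gene Fcgrt (-3.32) and the natural killer receptors Klra7 (-2.87) and Klrd1 (-2.62) were lower in 11 of 11. Ly6c2 and Klra7 belong to families of near-identical genes whose reads can be split. Of 26 memory and effector genes 22 lay above 0 (median 0.67, against 0.13 over all genes), whereas only 6 of 22 naive and recirculation genes did (median -0.09).

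**Figure D3:**
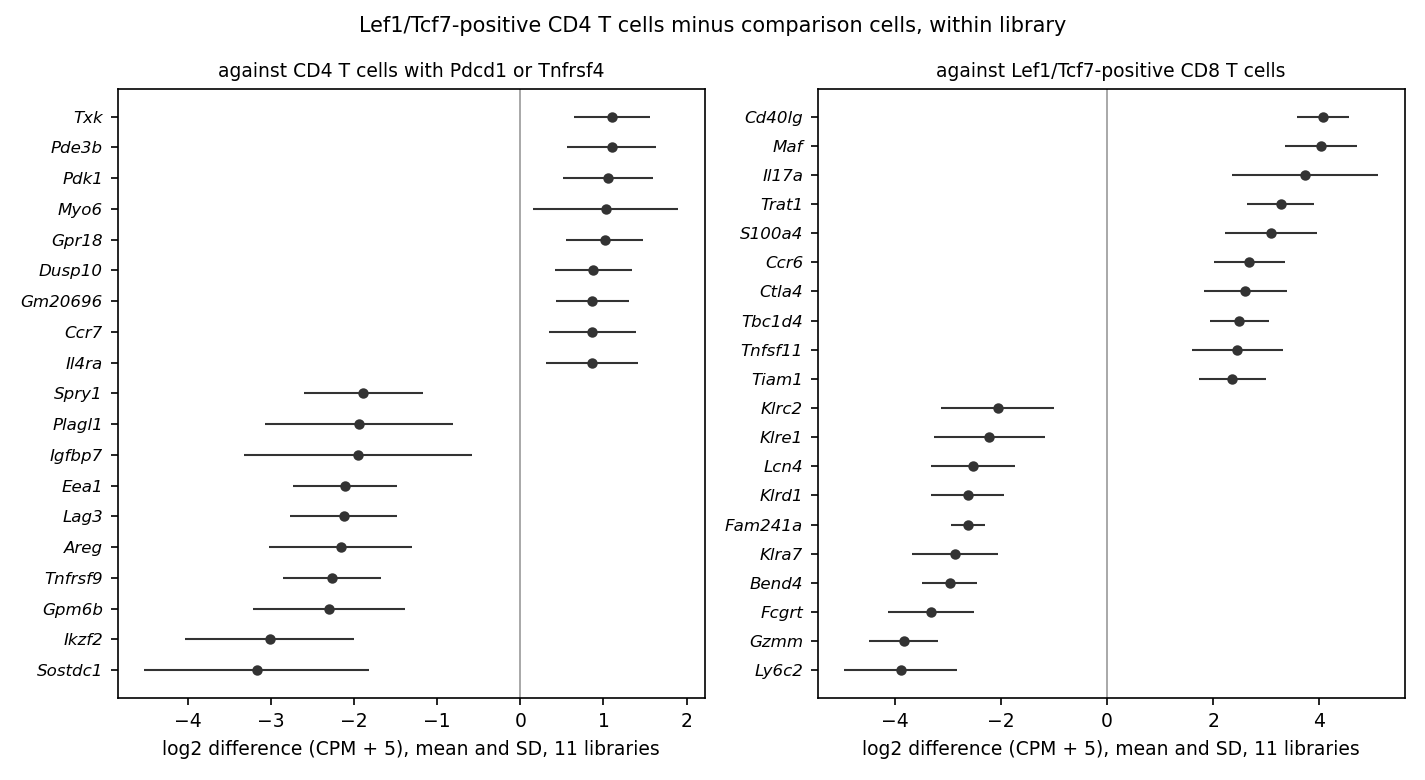
Log2 difference (CPM + 5) between Lef1/Tcf7-positive CD4 T cells and CD4 T cells with Pdcd1 or Tnfrsf4 (left) or Lef1/Tcf7-positive CD8 T cells (right) for the genes of largest difference, 9 higher on the left and 10 in each other set; points are means and bars SDs over 11 libraries. Txk and Pde3b sit highest on the left at 1.10, and Cd40lg on the right at 4.07.

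The study's design asks whether the mTert allele, and the mTertCD allele beside it, changed lung cells relative to p21Het mice. Of all filtered cells, the gated cells made up 0.952% in WT (52 of 5464, exact Clopper-Pearson 95% confidence interval 0.712% to 1.25%, counting error only), 1.45%, 1.35% and 1.84% in p21Het, and 1.17% and 1.29% in p21mTertCD. The p21mTert libraries gave 2.28%, 0.625%, 1.27%, 1.63% and 1.02%. The p21mTert libraries spanned the range of all other groups. The differences in percentage points were -0.182 for p21mTert minus p21Het, 0.134 for p21mTert minus p21mTertCD and -0.316 for p21mTertCD minus p21Het. Their exact 2-sided permutation p-values were 0.679, 0.857 and 0.2 in this order. Without p21mTertCD_1 the difference of 0.134 points became 0.0779 points.

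Of the CD4 T cells, the gated cells made up 34.0% in WT (interval 26.5% to 42.1%), 50.0%, 27.6% and 43.7% in p21Het, and 9.28% and 26.9% in p21mTertCD. The p21mTert libraries held 46.4%, 25.5%, 19.7%, 33.7% and 34.5%. The p21Het mean was 40.5% ± 11.5 (SD, n = 3), above the p21mTert mean of 32.0% ± 10.1 (SD, n = 5) and the p21mTertCD mean of 18.1% ± 12.4 (SD, n = 2), but the libraries of p21mTert overlapped those of both other groups. The exact permutation p was 0.339 for p21mTert minus p21Het, 0.238 for p21mTert minus p21mTertCD and 0.2 for p21mTertCD minus p21Het. Both p21mTertCD libraries lay below all 3 p21Het libraries in this share and in that of filtered cells, but 2 against 3 libraries cannot give a p below 0.1. Without p21mTertCD_1, p21mTertCD minus p21Het was -13.6 points in place of -22.4, and p21mTert minus p21mTertCD 5.10 in place of 13.9. The difference of -8.49 points between p21mTert and p21Het ran from -14.9 without p21Het_2 to -3.71 without p21Het_1.

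The share of gated cells with Ccr7 at 1000 UMIs was 42.3% in WT (interval 28.7% to 56.8%) and 32.2%, 13.0% and 35.2% in p21Het. In p21mTert it was 26.1%, 31.9%, 16.2%, 25.5% and 25.0%. Of the p21mTertCD libraries, p21mTertCD_1 held 0 of 77 cells, which allows a share of up to 3.90% as 3 counts of the total (exact upper limit 4.68%), and p21mTertCD_2 held 38.9%. At full depth the lowest share was 3.90% in p21mTertCD_1 and the highest 67.6% in p21Het_3. The p21Het mean was 26.8% ± 12.0 (SD, n = 3) and the p21mTert mean 24.9% ± 5.61 (SD, n = 5). The mean of p21mTertCD was 19.4% ± 27.5 (SD, n = 2), and its libraries lay outside the range of p21mTert, on opposite sides. None of the 3 contrasts passed: the differences were -1.87, 5.50 and -7.37 points (exact permutation p = 0.75, 0.667 and 0.7), in the order above. Without p21mTertCD_1 the second became -13.9 and the last 12.1, and without p21Het_2 the first became -8.76 (exact permutation p = 0.190). Adjusted over these 9 tests of shares, p was 0.714 to 0.857. These shares do not tell fewer cells of a kind apart from more cells of another.

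**Figure D4:**
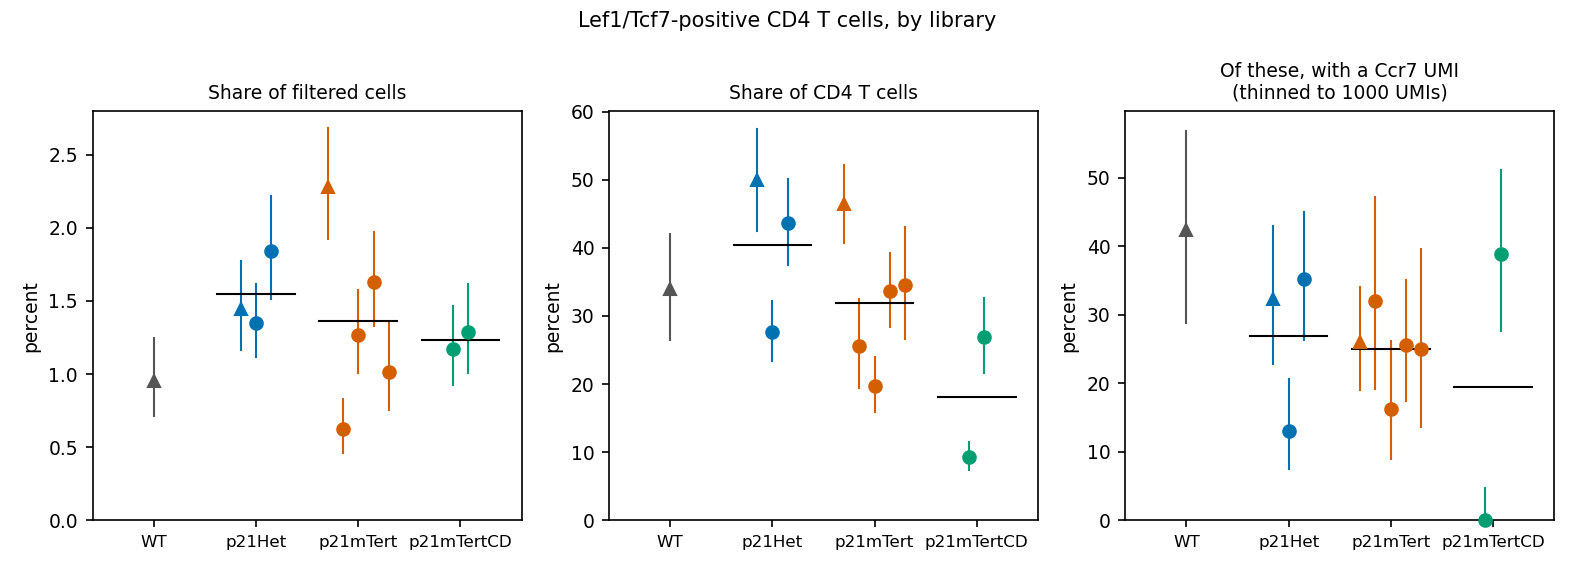
Lef1/Tcf7-positive CD4 T cells as a percent of filtered cells (left) and of CD4 T cells (middle), and the percent of them with a Ccr7 UMI at 1000 UMIs (right); points are libraries with exact 95% intervals, triangles the first deposit and lines group means. The p21mTertCD libraries sit at 0% and 38.9% on the right.

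Levels of 6585 genes were then compared between groups on UMIs summed per library, with edgeR's quasi-likelihood test. Between p21mTert and p21Het no gene passed an adjusted p of 0.05 (0%). At an unadjusted p under 0.05 there were 297 genes (4.51%), and DESeq2 called 0. The library values of 202 genes (3.07%) did not overlap between these groups. The gene of smallest p was Art2b (ENSMUSG00000030651, chromosome 7, 101576970 to 101585600), which encodes a surface ADP-ribosyltransferase of T cells and lies beside the near-identical Art2a-ps, so its counts are uncertain. Art2b was at 18.1 CPM in WT, at 7.33, 6.29 and 6.43 CPM in p21Het, at 23.2, 28.0, 22.6, 21.7 and 30.7 CPM in p21mTert, and at 30.2 and 29.8 CPM in p21mTertCD. These levels rest on 4 to 17 UMIs per library. The 5 p21mTert libraries were all higher than the 3 p21Het libraries, but the log2 difference of 1.85 (SE 0.33) had an edgeR adjusted p of 0.373.

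Other genes of smallest p in this contrast failed the correction as well. Rell1, a relative of a tumour necrosis factor receptor, was at 34.8, 42.5 and 59.1 CPM in p21Het, at 16.4, 17.5, 16.5, 18.8 and 12.3 CPM in p21mTert, and at 34.0 and 51.1 CPM in p21mTertCD (p21mTert minus p21Het -1.47, SE 0.29, edgeR adjusted p = 0.373). Cd44, an adhesion receptor of memory T cells, was at 367, 444 and 297 CPM in p21Het and at 247, 185, 224, 218 and 277 CPM in p21mTert (-0.68, SE 0.17, adjusted p = 0.909 in edgeR). Neither gene overlapped between the groups. Fibp (1.25), Gm47283 (1.27), Xcl1 (3.48), Bst1 (-2.78), Dhrs3 (-1.86) and Slc34a2 (-2.41) had edgeR adjusted p-values of 0.373 to 0.909. Slc34a2, a phosphate transporter of alveolar type 2 cells, was highest in p21Het_1 at 196 CPM, the library with the most Sftpc, and its log2 difference was -0.80 without that library.

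For p21mTertCD minus p21Het, 1 gene of 6585 (0.0152%) passed edgeR's test, and 0 did without p21mTertCD_1. At an unadjusted p under 0.05 there were 409 genes (6.21%), and the libraries of 1284 (19.5%) did not overlap. DESeq2 called 10 genes here, Nkg7, Cxcr3 and Lmna among them. Leaving out each library in turn gave 0 to 34 calls in edgeR. Among genes of small p were Sh2d1a, the adaptor SAP of T cells (1.27, SE 0.22, edgeR adjusted p = 0.109, and 0.84 without p21mTertCD_1), and Art2b (2.17, SE 0.39, adjusted p = 0.109 in edgeR). Nkg7 was at 125, 143 and 119.5 CPM in p21Het and at 1231 and 217 CPM in p21mTertCD (2.50, SE 0.49, edgeR adjusted p = 0.141), and differed by 0.82 without p21mTertCD_1. Lmna, which encodes nuclear lamins, was at 288, 307 and 206 CPM in p21Het and, with lower values, at 73.7 and 66.0 CPM in p21mTertCD (-1.89, SE 0.35, edgeR adjusted p = 0.109). Lmna was at 190.0, 66.4, 136, 209.7 and 119.9 CPM in p21mTert and at 32.5 CPM in WT. The protease gene Furin was at 196, 211 and 199 CPM in p21Het and at 85.0 and 66.0 CPM in p21mTertCD (-1.38).

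Between p21mTert and p21mTertCD no gene passed edgeR's test (0%), 352 (5.35%) had an unadjusted p under 0.05, DESeq2 called 1 (Scgb1a1), and 586 (8.9%) did not overlap. Of 15 cell cycle genes, 1 lay above 0 (median -0.97) and 9 had an unadjusted p under 0.05, with 4 of 16 (median -0.76) without p21mTertCD_1. The 4 erythroid markers measured were lower at an unadjusted p under 0.05 as well (median -3.60), and turned to a median of 3.93 without p21mTertCD_1. Their part was not tested. Naive and recirculation genes lay above 0 in 16 of 21 (median 0.20), and in 1 of 22 (median -0.36) without p21mTertCD_1. The gene of smallest p among those lower in p21mTert was Ube2c, an enzyme of mitotic exit. It was at 0, 3.49, 18.5, 7.23 and 3.07 CPM in p21mTert and at 122.8 and 55.3 CPM in p21mTertCD (log2 difference -3.77, SE 0.64, edgeR adjusted p = 0.219). Mki67 was at 1.37, 0, 26.8, 8.68 and 9.22 CPM in p21mTert and at 151 and 36.2 CPM in p21mTertCD, but it was at 66.8 CPM in p21Het_3. Its log2 difference was -3.33, and -2.01 without p21mTertCD_1. Among gated cells with a Ccr7 UMI alone, of which p21mTertCD_1 held 3, Mki67 and Top2a turned, with log2 differences of 1.55 and 0.32. Among higher genes, Bcl2l11, which encodes the death-promoting protein BIM, was at 109, 126, 88.5, 86.8 and 154 CPM in p21mTert and at 47.2 and 34.1 CPM in p21mTertCD (1.40, SE 0.27, edgeR adjusted p = 0.448). Scgb1a1 also differed (1.41), and this is the club cell gene with UMIs in 98.5% of gated cells.

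**Figure D5:**
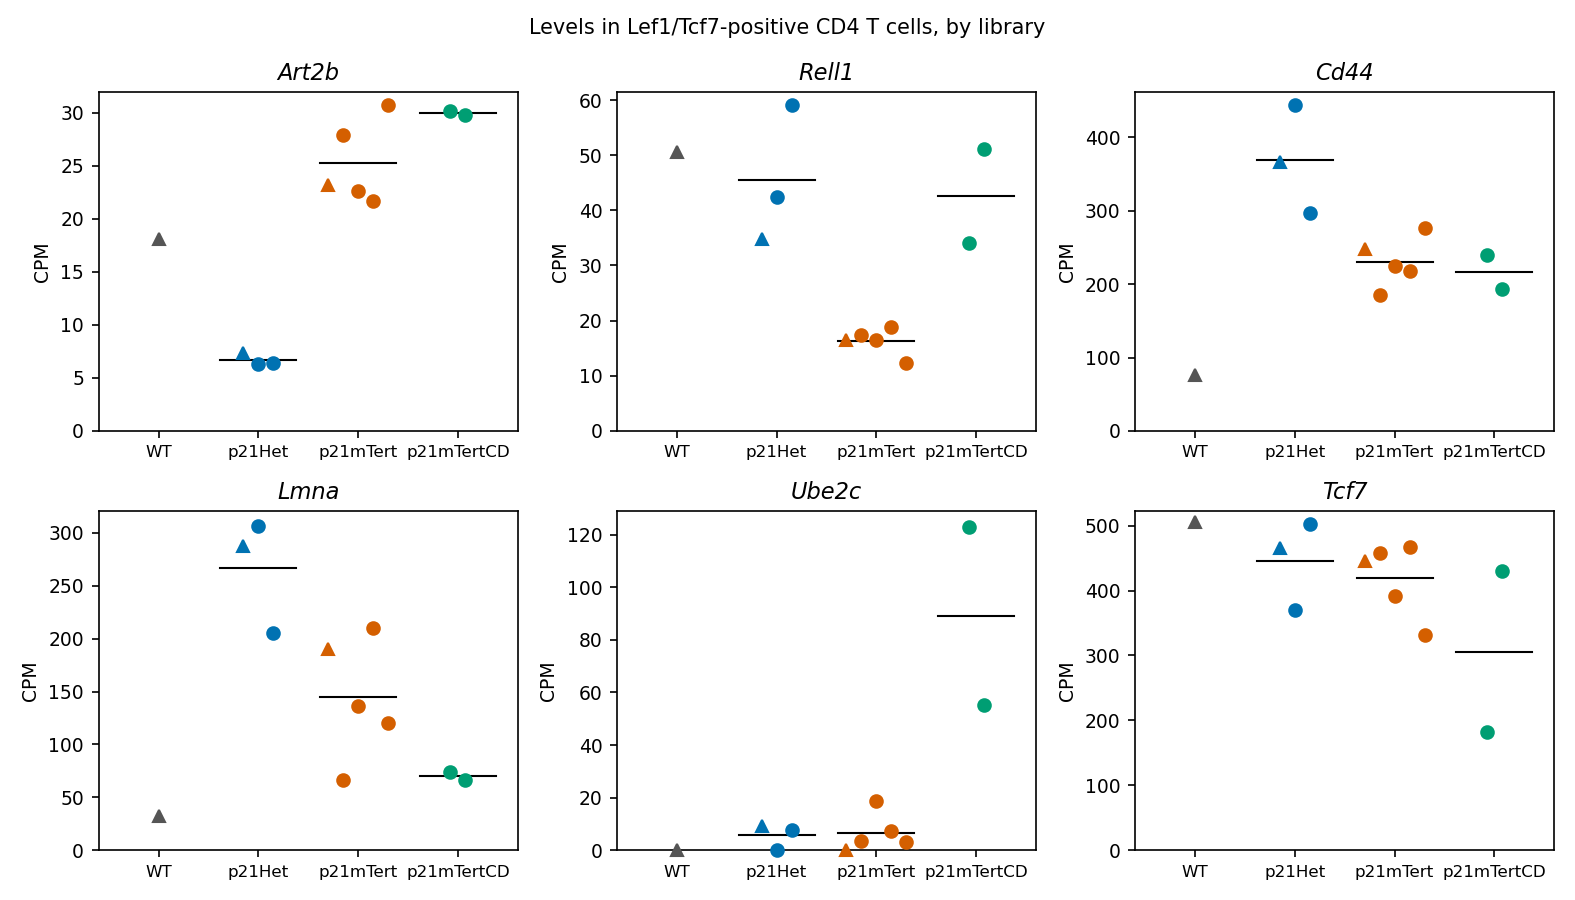
Levels of Art2b, Rell1, Cd44, Lmna, Ube2c and the gate gene Tcf7 in Lef1/Tcf7-positive CD4 T cells, in CPM; points are libraries by group, triangles the first deposit and lines group means. Art2b spans 6.29 to 7.33 CPM in p21Het and 21.7 to 30.7 CPM in p21mTert.

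The lists showed where small differences ran the same way without passing the test. Of 7 T helper 1 genes measured, 7 lay above 0 for p21mTert minus p21Het, with a median of 0.76 against 0.00 over all genes, and 4 of 7 had an unadjusted p under 0.05, against 4.51% of all genes: Cxcr3 (1.15), Ccl4 (2.81), Ccl5 (1.65) and Stat4 (0.59). The summed T helper 1 list was at 1481 to 5205 CPM in p21mTert, 733 to 1199 CPM in p21Het, 1656 and 6511 CPM in p21mTertCD and 1088 CPM in WT, so p21mTert and p21Het did not overlap, as was the case for 3.07% of single genes. Ccl5 alone made up 4667 of the 5205 CPM in p21mTert_5. The T helper 1 factor Tbx21 and the cytokine gene Ifng were not among the 4. In this contrast they differed by 0.17 and 0.76 without p21mTertCD_1, a library of neither group, and by 0.02 and 1.47 without p21Het_1. Of 7 T helper 17 genes, 0 lay above 0 (median -0.49) and 1 had an unadjusted p under 0.05, the membrane protein gene Tmem176a (-0.64). No gene of either list was called in edgeR. Markers of natural killer and innate T cells moved with the T helper 1 genes: 4 of 4 measured lay above 0 (median 1.65), and the 12 markers summed to 70.9 to 318.5 CPM in p21mTert and 61.3 to 75.2 CPM in p21Het. Their part was not tested.

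Of 33 interferon response genes, 28 lay above 0 for p21mTert minus p21Het (median 0.24, and 0.38 without p21Het_1) and 2 had an unadjusted p under 0.05, a share near the 4.51% of all genes, Isg15 (0.66) and Ly6c2 (1.44), with 0 called. Naive and recirculation genes did not lean either way (10 of 21 above 0, median -0.01), with the costimulatory receptor Cd27 (0.89, edgeR adjusted p = 0.909) as the one gene at an unadjusted p under 0.05. Memory and effector genes leaned neither way (11 of 27 above 0, median -0.08), but 7 of 27 had an unadjusted p under 0.05, against the same 4.51%, 5 of them higher, Nkg7 (1.18) and Il2rb (0.89) included, and Cd44 (-0.68) and Anxa1 (-0.92) lower. Ccl5 and Cxcr3, already counted among the T helper 1 genes, are also in this list and among these 5. Structural cell markers moved with these groups: Sftpa1, Sftpb and Sftpc were lower in p21mTert by 1.37 to 1.45 on the log2 scale at unadjusted p-values under 0.05, while Scgb1a1 was higher by 0.64. Without p21Het_1 the first 3 differed by -0.21, -0.22 and 0.21, none at an unadjusted p under 0.05, and Scgb1a1 by 1.088. Their summed list was at 2030 to 3099 CPM in p21mTert and at 7364, 2023 and 1221 CPM in p21Het, and its part in the results was not tested.

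Leaving aside the Cd3 genes of the gate, T cell receptor signalling genes lay above 0 for p21mTert minus p21Het in 16 of 21 (median 0.14), with Trbc2 (0.52, SE 0.15, edgeR adjusted p = 0.909) the one gene at an unadjusted p under 0.05. Trbc2 was at 921, 774 and 920.2 CPM in p21Het and at 1259, 1094, 1073, 1293 and 1497 CPM in p21mTert, without overlap. Of 11 p53 targets and CDK inhibitors 7 lay above 0 (median 0.10), with Cdkn1a the one gene at an unadjusted p under 0.05. Of 10 telomerase and shelterin genes, the latter coding for proteins that cap chromosome ends, 7 lay above 0 (median 0.10), with none at an unadjusted p under 0.05.

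For p21mTertCD minus p21Het, 14 of 15 cell cycle genes lay above 0 (median 0.99) and 8 of 15 had an unadjusted p under 0.05, against 6.21% of all genes, among them Ube2c (3.97), Top2a (1.71) and Ccnb2 (2.14), with 0 called. The summed list was at 2037 and 3400 CPM in p21mTertCD and at 1056 to 1966 CPM in p21Het, without overlap, as was the case for 19.5% of single genes. Without p21mTertCD_1 the median was 0.51, with 15 of 16 above 0 and 2 at an unadjusted p under 0.05, and Top2a differed by 0.97. All 7 T helper 1 genes lay above 0 in this contrast as well (median 1.38), led by Ccl5 (2.47), Ccl4 (2.02) and Cxcr3 (1.77), and 28 of 33 interferon response genes did (median 0.42), led by Ifi204 (2.58), Ly6c2 (1.44) and Ifi27l2a (1.39). Without p21mTertCD_1, 5 of 7 T helper 1 genes lay above 0 (median 0.65, with Ccl5 at 1.11 and Cxcr3 at 1.20, while Ccl4 at -0.46 and Hopx at -0.53 turned), and 27 of 35 interferon response genes (median 0.45, with Ly6c2 at 0.87). Of 7 T helper 17 genes, 0 lay above 0 (median -0.78, and -0.82 without p21mTertCD_1) and 3 of 7 had an unadjusted p under 0.05: Tmem176a (-0.98), Tmem176b (-0.78) and the interleukin 1 receptor gene Il1r1 (-1.62). This contrast and the former share the p21Het libraries. Of naive and recirculation genes, 7 of 21 lay above 0 for p21mTertCD minus p21Het (median -0.22), and 20 of 22 without p21mTertCD_1 (median 0.31). Immediate early genes, which dissociation can induce, included Fos (-1.13) and Jun (-0.91) at an unadjusted p under 0.05. These became -0.65 and -0.42 without p21mTertCD_1, and -0.82 and -0.46 without p21Het_1, where neither had an unadjusted p under 0.05. Their list summed to 6437 CPM in p21mTertCD_1, the lowest of the series, and to 10286 CPM in p21mTertCD_2. In p21Het it was highest in p21Het_1, at 12970 CPM. In the same contrast the 4 erythroid genes measured lay above 0 (median 1.78, and -5.82 without p21mTertCD_1, where 0 of 4 did). In p21mTertCD_1 erythroid and platelet markers summed to 15777 CPM against 97.9 CPM in p21mTertCD_2. Gzma, Klrd1 and Prf1 of natural killer and cytotoxic cells were also higher at an unadjusted p under 0.05, which none was without p21mTertCD_1, with Gzma at 225 CPM in p21mTertCD_1 and at 0 UMIs in p21mTertCD_2. The 12 natural killer and innate T markers summed to 432.5 CPM and 70.2 CPM in these libraries, and the defining natural killer gene Ncr1 was at 0 in both. Structural cell markers were lower in this contrast, with 0 of 5 above 0 (median -1.42, and -0.45 without p21Het_1) and 3 of 5 at an unadjusted p under 0.05, 0 of 5 without p21Het_1. Whether these markers bear on the other differences was not tested.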

How the data were processed

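Single-cell 3′ RNA libraries of dissociated lung from 11 samples were used. The deposited files hold raw UMI counts per gene and barcode. They were made with Cell Ranger on the mm10 build, per the submitters' processing notes. The deposited matrices also hold barcodes outside the limits on UMIs and mitochondrial share, which were applied here.

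Cells were gated by UMI thresholds as given in the report. Gated cells, comparison groups and gene lists were chosen with earlier results of these data known. UMIs were summed per library and tested with the quasi-likelihood test of edgeR 4.0.16 under R 4.3.3, with a filter on low counts (filterByExpr), TMM factors and a term for group over 10 libraries. P-values were adjusted by Benjamini-Hochberg over 6585 genes and called under 0.05. Shares were compared by exact 2-sided permutation tests over libraries, whose smallest p is 0.0179 for 5 against 3, 0.0476 for 5 against 2 and 0.1 for 2 against 3. WT, with 1 library, entered no test. Comparisons between gated populations have no test and use log2(CPM + 5), which understates the change of low genes. Intervals are exact (Clopper-Pearson, 95%) and cover counting error only. Thinning drew 1000 UMIs per cell. Doublets were scored with Scrublet in scanpy 1.11.5 and kept. The highest scores, up to 0.8% per 1000 barcodes, were left out as an alternative, which marked 33 gated cells. DESeq2 1.42.0, other gates, filters and left-out libraries were further alternatives.

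Named genes are those of the gate and lists, Cdkn1a and Tert, and by rule called genes or, where under 5 per direction were called, those of smallest p, and the 10 of largest difference per direction against each comparison population. A few genes, the one called gene among them, are not reported here. Ccr7 as the gene that divides the gated cells was chosen after the data were examined. On simulated data edgeR found 46%, 33% and 34% of 2-fold and 98%, 95% and 90% of 4-fold changes for p21mTert against p21Het, p21mTert against p21mTertCD and p21mTertCD against p21Het, with 5, 11 and 6 false calls among 6396, 6242 and 6337 genes. These shares were not split by gene level, and recovery among genes of low CPM, such as Art2b, was not tested. Gene positions are from GENCODE M21 (GRCm38), and promoter sequences from RefSeq (GRCm38.p6).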

Additional observations from a re-analysis of the deposited data

Results flagged for a closer look

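Of 52 quantities checked in the 5 p21mTert libraries (shares, named genes and list sums, without the genes of the gate), 4 had a library whose gap to its nearest neighbour exceeded Dixon's critical value of 0.71 for a share of the range. Chance marks about 1 in 20. T helper 1 genes summed to 5205 CPM in p21mTert_5 against 1481 to 2105 CPM, and most of this sum was Ccl5. T helper 2 genes summed to 115.7 CPM in p21mTert_4 against 148 to 157 CPM. Immediate early and stress genes summed to 13298 CPM in p21mTert_1, the only p21mTert library of the first deposit, against 9830 to 10152 CPM. B cell markers summed to 2886 CPM in p21mTert_4 against 267 to 666 CPM, with Cd74 at 1282 CPM there and Ms4a1 at 0 UMIs.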

How the results depend on the processing

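The share of CD4 T cells kept its direction in all 15, 14 and 12 alternatives of the 3 contrasts (-14.9 to -3.71, 5.10 to 22.7 and -31.2 to -13.6 points with a library left out), and p21mTertCD minus p21Het did in all 12 for the share of filtered cells. The other shares turned under some settings. The smallest unadjusted exact permutation p under any was 0.133, for p21mTert minus p21mTertCD in the share of CD4 T cells. For the share of filtered cells, p21mTert minus p21Het was 0.0190 points when every barcode was thinned to 1000 UMIs before gating, which left 145 gated cells, and 0.00287 without p21mTert_2, and p21mTert minus p21mTertCD was -0.0957 in the later deposit alone, which is the same as without p21mTert_1. Leaving out a library in turn gave -0.412 to 0.00287, -0.0957 to 0.319 and -0.414 to -0.168 for the 3 contrasts of this share. For the share with Ccr7, with settings chosen after seeing the data, the same gave -8.76 to 2.31 (0.828 without p21Het_1, 2.31 without p21Het_3, 0.298 without p21mTert_3), -13.9 to 24.9 and -26.8 to 12.1, the last 2 turning without p21mTertCD_1. In the later deposit alone its p21mTert minus p21Het was 0.549.

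Counts of called genes depended on the filter on low counts: with none, 107, 94 and 118 genes passed for p21mTert against p21Het, p21mTert against p21mTertCD and p21mTertCD against p21Het. DESeq2 called 0, 1 and 10. For p21mTertCD minus p21Het, 4 genes passed without doublets and 0 without TMM, at a mean of 10 UMIs per library, with Ccr7 cells only, with Lef1 and Tcf7 at 2 or more, after thinning, with only the 2 groups in the fit, with a term for deposit and in the later deposit alone. Leaving out a library gave 0 to 34 there and 0 to 16 for p21mTert minus p21mTertCD, the highest without p21mTertCD_2, which leaves p21mTertCD_1 alone, assumed to vary like the other groups. Without cells holding myeloid UMIs, chosen after seeing the data, only Lmna passed.

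Differences to other populations, with settings chosen after seeing the data, fell from 58 to 33 genes (Pdcd1/Tnfrsf4) and from 155 to 91 (CD8) after thinning, and rose from 64 to 109 with a pseudocount of 1 and to 115 to 188 with a library left out (Lef1/Tcf7-negative), where fewer libraries have to run the same way. Of 592 alternatives for 28 results of named genes, 553 kept the direction and side of the threshold, 37 passed it and 2 turned, Top2a (0.315) and Mki67 (1.55) for p21mTert minus p21mTertCD in cells with Ccr7 alone.

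Replicate numbers do not pair the libraries: deviations of same-numbered libraries correlated at -0.266 to 0.285. With the replicate number as a block, edgeR called 0 genes in each contrast, and the shares differed by -0.154, 0.223 and -0.168 points (filtered cells), -9.91, 17.9 and -20.8 (CD4 T cells) and -2.08, 9.54 and -3.19 (Ccr7). With 47 to 142 cells per library, changes in rare transcripts such as Tert were not detectable at this depth.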

Other observations

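T cell receptor beta segments were read from few UMIs. In the Pdcd1/Tnfrsf4 cells of p21mTertCD_1, Trbv16 made up 101 of 210 Trbv UMIs (48.1%), whereas in the gated cells of that library the most frequent segment was Trbv26, with 6 of 22 UMIs. In the gated cells of the other 10 libraries, 2 to 25 Trbv UMIs were counted, too few to compare segments. Among the gated cells 33 were marked as likely doublets, and the threshold Scrublet set for each library marked 16.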
